A study of Mus musculus with 42 samples.

Results

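The B cell and immunoglobulin genes Ighm, Igkc, Cd79a, Cd79b, Ms4a1, Jchain and Cxcl13 were followed through 42 MC38 tumors given PD-1 blockade alone or together with antibodies against GM-CSF and the interleukin 2 receptor beta chain. These 7 genes were taken by name from the 26811 genes of the count matrix, and all 7 passed the filter on low counts that left 16932 genes for testing. MC38 is a mouse colon carcinoma cell line that arose in C57BL/6, and every tumor grew under the skin of a female CC075/UncJ x C57BL/6J F1 mouse (CC75xB6) that was 8 to 12 weeks old at injection. Mice of the isotype control group (n = 5) received isotype antibodies throughout. Mice of the aPD1 group (n = 6) received isotype antibodies from engraftment and a dose of 200 ug of aPD1 when the tumor measured 75 to 110 mm3. The aPD1 + aGMCSF group (n = 9) received 100 ug doses of aGMCSF from engraftment until that aPD1 dose, the aPD1 + aIL2RB group (n = 11) received 200 ug doses of aIl2rb, and the aPD1 + aGMCSF + aIL2RB group (n = 11) received both. Tumors were collected 48 h after aPD1 or its isotype, so that all tumors share the cell line, the host cross, injections of antibody or isotype and the time of collection. No group received a blocking antibody without aPD1, and each profile is of a whole tumor, in which tumor cells, stroma and blood cells are mixed.

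B cells carry a receptor made of an immunoglobulin heavy chain, at first of the IgM class encoded by Ighm, and a light chain, which in mice is mostly the kappa chain encoded by Igkc. CD79A and CD79B (Cd79a, Cd79b) carry the signal of this receptor into the cell, and CD20 (Ms4a1) is a membrane protein of B cells that is lost when they become plasma cells, which secrete antibody and use the J chain (Jchain) to join IgM and IgA into polymers. CXCL13 (Cxcl13) is the chemokine that draws CXCR5-bearing B cells and follicular helper T cells into follicles, and it is made by stromal cells, macrophages and some T cells rather than by B cells themselves.

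The stretch before the transcription start was available from RefSeq (assembly GRCm38.p6) for 3 of the 7 genes, Cd79a, Jchain and Cxcl13. The 150 bases before the start of Jchain, at chr5:88527898-88528047 on the minus strand, and of Cxcl13, at chr5:95956789-95956938 on the plus strand, are shown because the joining chain of secreted antibody and the B cell chemokine were lower together in aPD1 + aIL2RB tumors than in aPD1 tumors. They are in lower case from 5′ to 3′, with a match to the letters TATAAA in capitals.
Jchain: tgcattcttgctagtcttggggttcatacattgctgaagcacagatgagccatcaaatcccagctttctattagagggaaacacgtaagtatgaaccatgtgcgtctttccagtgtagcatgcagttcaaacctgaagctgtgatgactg
Cxcl13: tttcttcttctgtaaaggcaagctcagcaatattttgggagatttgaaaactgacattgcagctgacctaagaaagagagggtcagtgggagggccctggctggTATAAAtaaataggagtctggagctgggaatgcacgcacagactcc
The match in Cxcl13 begins 46 bases before the start. TATAAA, read on both strands of the 300 bases around the start, was found in 13.6% of 32851 promoters. The immunoglobulin octamer ATGCAAAT, which does not overlap TATAAA, was found in 1.74% of them and in none of the windows of Cd79a, Jchain and Cxcl13. These matches describe letters in a window of the C57BL/6J reference and were not measured for binding.

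The tumors were sequenced to a median of 20215382 counts, with extremes of 7155486 and 24101674 and a second lowest total of 15109227. Along their replicate numbers the tumors were divided into 2 sets that neither the labels nor the study's text name, with isotype control replicates 1 and 2, aPD1 replicates 1 to 3, aPD1 + aGMCSF replicates 1 to 5 and replicates 1 to 6 of both aIL2RB groups in the first and the other 20 tumors in the second. The first set is also the first 22 tumors in the order of deposit. On the first principal component the sets overlapped, at −58.0 to 18.5 in the first and −11.0 to 41.8 in the second. In a model with the set as a term, 2309 of all genes were higher and 1943 were lower in the second set. The division was taken from earlier results of these same data, so these counts are not independent evidence of it. Within the groups 2 tumors stood apart in more than 1 of the genes described here. In a single gene, aPD1 replicate 3 stood apart in Igkc and aPD1 + aGMCSF replicate 3 in Cd79a. Replicate 6 of aPD1 was the highest of its group in Ighm, Cd79a, Cd79b, Ms4a1 and Cxcl13, and also in Cr2, the complement receptor of B cells and follicular dendritic cells, at 3.19 CPM (counts scaled by TMM to a common total per tumor) against 1.203 in the next. The summed level of 6 follicular dendritic cell and lymph node stroma genes was 9.09 CPM in that tumor and 2.16 CPM in the next of its group. Replicate 2 of the isotype control group was the highest of its group in Ighm, Igkc, Cd79a, Ms4a1, Jchain and Cxcl13. The labels call the samples biological replicates. The main results that rest on aPD1 replicate 6 or isotype control replicate 2 are given with and without them, except that Ms4a1 has no fit without aPD1 replicate 6.

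The genes differed widely in abundance, and most of their counts were low. Ighm lies at chr12:113418558-113422730 on the minus strand of GRCm38 and had 155 to 1266 counts per tumor. Cxcl13 lies at chr5:95956951-95961068 on the plus strand and had 15 to 2327 counts. Igkc lies at chr6:70726435-70726966 on the plus strand and had 0 to 207 counts, with 12 tumors under 10. Ighm and Cxcl13 thus had counts well above 0 in every tumor, and Igkc had few in many of them.

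Cd79b lies at chr11:106311341-106314762 on the minus strand and had 6 to 123 counts. Cd79a lies at chr7:24897381-24902197 on the plus strand and had 2 to 36 counts, with 26 tumors under 10. Jchain lies at chr5:88519809-88527891 on the minus strand and had 0 to 45 counts, with 9 tumors at 0, and Ms4a1 lies at chr19:11249675-11266241 on the minus strand and had 0 to 45 counts, with 11 tumors at 0. A count of 0 allows 3 counts, which equal 0.124 to 0.419 CPM over the tumors, and this bound covers counting error only. The gene Gm30211 overlaps Igkc and reached 6 counts, and 4930526L06Rik overlaps Ms4a1 and reached 10 counts; whether the counting used the strand is not given in the sources used here.

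Per kilobase of exon in isotype control tumors, the mean level was 37.9 CPM for Cxcl13, 11.5 for Ighm and 6.72 for Igkc. On the same scale Cd79b stood at 0.662, Cd79a at 0.390, Jchain at 0.284 and Ms4a1 at 0.0191 CPM per kilobase. These means varied between the sets of tumors. In the first and second set they were 73.5 and 14.2 for Cxcl13, 13.4 and 10.3 for Ighm, and 13.1 and 2.48 for Igkc. Cd79a, Jchain and Ms4a1 were also higher in the first set, and Cd79b was lower. The chemokine and the IgM heavy chain were therefore far above CD79 and CD20, the transcripts that define B cells. In these bulk profiles fewer cells of a type and less RNA per cell cannot be told apart.

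**Figure D1:**
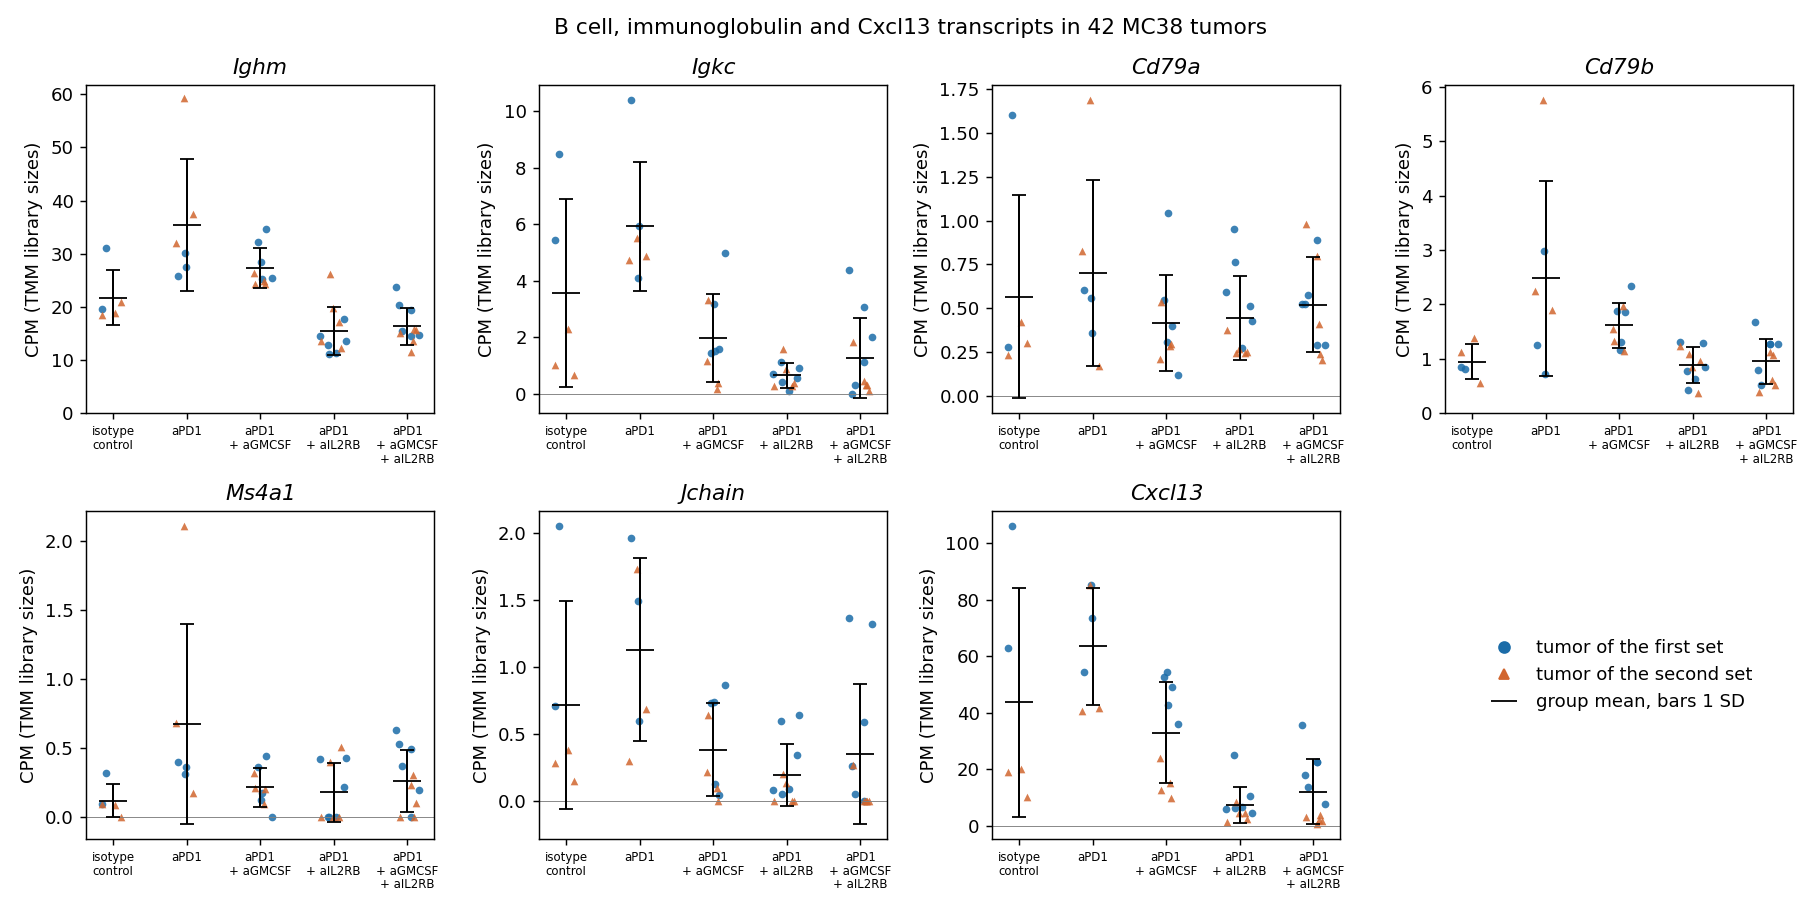
Level of each of the 7 genes in CPM (TMM normalized) in every tumor by treatment group, with circles for the first set, triangles for the second and bars for the group mean ± 1 SD. The aPD1 tumors have the highest mean of all 7 genes, and the aPD1 + aIL2RB tumors of Igkc and Cxcl13 lie wholly below them.

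The mean levels of Ighm, Cxcl13 and Igkc followed one of 2 orders, and Cd79b had another. The mean level of Ighm was 35.4 ± 12.4 CPM in aPD1 (SD, n = 6), 27.3 ± 3.72 in aPD1 + aGMCSF (n = 9), 21.8 ± 5.25 in isotype control (n = 5), 16.4 ± 3.46 in aPD1 + aGMCSF + aIL2RB (n = 11) and 15.5 ± 4.50 in aPD1 + aIL2RB tumors (n = 11). The mean level of Cxcl13 was 63.4 ± 20.6 CPM in aPD1, 43.6 ± 40.6 in isotype control, 32.9 ± 17.9 in aPD1 + aGMCSF, 11.9 ± 11.5 in aPD1 + aGMCSF + aIL2RB and 7.23 ± 6.44 in aPD1 + aIL2RB tumors. Igkc had the order of Cxcl13, with 5.93 ± 2.28, 3.58 ± 3.33, 1.98 ± 1.55, 1.27 ± 1.43 and 0.663 ± 0.439 CPM. For Cxcl13 the place of isotype control above aPD1 + aGMCSF rested on isotype control replicate 2. The medians of Cxcl13 were 19.9 CPM in isotype control and 35.9 CPM in aPD1 + aGMCSF tumors. Without that replicate, Cxcl13 in aPD1 + aGMCSF against isotype control had a log2 fold change of 0.23 (adjusted p = 0.992). With the replicate block it had 0.37 (adjusted p = 0.773). For Ighm, Cxcl13 and Igkc no pair of neighbours in the order passed the test, whereas the outer groups did, as described in the comparisons.

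aPD1 was compared with isotype control to ask what PD-1 blockade did to these transcripts within 48 h. Ighm and Cd79b rose and the other 5 genes did not pass the test, so that 2 of 7 were higher and none lower, where 6.17% of all genes tested were higher. Ighm, the heavy chain of IgM, stood at 19.5, 30.99, 20.97, 18.9 and 18.4 CPM in isotype control replicates 1 to 5 and at 25.9, 31.03 and 59.3 CPM in the lowest, median and highest aPD1 tumors. All isotype control tumors but replicate 2 were below the lowest aPD1 tumor, and the groups overlapped through that tumor. The log2 fold change was 0.70 ± 0.19 (SE) with an adjusted p of 0.0177 in edgeR's quasi-likelihood test. Cd79b, the receptor's signaling chain, stood at 0.850, 0.822, 0.554, 1.39 and 1.12 CPM in the isotype control tumors and at 0.720, 2.07 and 5.76 CPM in the lowest, median and highest aPD1 tumors. The aPD1 replicates 2 and 3 lay within the range of the isotype control tumors and the other 4 lay above it, and the log2 fold change was 1.38 ± 0.38 with an adjusted p of 0.0180.

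Both calls rested on single tumors. The rise of Ighm became 0.49 with an adjusted p of 0.0958 without aPD1 replicate 6, and 0.65 with an adjusted p of 0.0590 without isotype control replicate 4. The rise of Cd79b became 0.93 (adjusted p = 0.119) without aPD1 replicate 6 and 1.24 (adjusted p = 0.0548) without isotype control replicate 3. When only these groups entered the fit, the adjusted p was 0.0526 for Ighm and 0.0868 for Cd79b.

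Among the genes that did not pass, Ms4a1 (CD20) had a log2 fold change of 2.44 ± 0.95 with an adjusted p of 0.1002, from a mean of 0.118 ± 0.119 CPM in isotype control, which lies at the level of a few counts, to 0.672 ± 0.723 CPM in aPD1 tumors. Igkc, Jchain and Cxcl13 had log2 fold changes of 0.73 ± 0.67, 0.66 ± 0.91 and 0.54 ± 0.63, and Cd79a 0.30 ± 0.52, with adjusted p-values of 0.542 to 0.772. Cxcl13 stood at 62.9, 106, 10.1, 19.9 and 18.9 CPM in the isotype control tumors. Replicates 1 and 2, which make up the first set of that group, were thus above the other 3. Without isotype control replicate 2, the log2 fold changes were 1.17 for Cxcl13, 1.33 for Igkc, 1.55 for Jchain, 1.15 for Cd79a and 3.17 for Ms4a1, with adjusted p-values of 0.0764 to 0.384. Without aPD1 replicate 6, Cd79a had −0.20 (adjusted p = 0.877), and Ms4a1 was not fitted.

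Addition of aGMCSF to aPD1, compared with aPD1 alone, asked whether GM-CSF was needed for the levels seen under aPD1. All 7 log2 fold changes were below 0 and none passed the edgeR test, where 8.75% of all genes were lower. At an unadjusted p under 0.05, 3 genes passed, and DESeq2 called 0. Calls appeared when the sets or the replicate numbers entered the fit. With the set as a term Igkc had −1.73 (adjusted p = 0.0206) and Cxcl13 −1.38 (adjusted p = 0.00824), and with the replicate block Igkc had −1.60 (adjusted p = 0.0479). In the first set alone Ighm had 0.072 (adjusted p = 0.906) and Cxcl13 −0.60 (adjusted p = 0.531), and in the second they had −0.80 (adjusted p = 0.00794) and −1.88 (adjusted p = 0.00398). With only these groups in the fit, Igkc had −1.59 (adjusted p = 0.0182). The nearest to the threshold was Igkc, at 4.10, 5.19 and 10.4 CPM in the lowest, median and highest aPD1 tumors and at 0.192, 1.52 and 4.99 CPM in the aPD1 + aGMCSF tumors, with a log2 fold change of −1.59 ± 0.58 and an adjusted p of 0.0591. Ighm changed by −0.37 ± 0.16 (adjusted p = 0.125) and Cxcl13 by −0.95 ± 0.54 (adjusted p = 0.256). Cd79a, Cd79b, Ms4a1 and Jchain lay between −0.62 and −1.61 with adjusted p-values of 0.150 to 0.314.

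Addition of aIL2RB to aPD1 lowered 6 of the 7 genes, where 14.5% of all genes were lower. The largest falls were those of the kappa light chain and the B cell chemokine. Igkc stood at 0.0911, 0.557 and 1.58 CPM in the lowest, median and highest aPD1 + aIL2RB tumors, all below the lowest aPD1 tumor at 4.10 CPM. The log2 fold change of Igkc was −3.16 ± 0.58 with an adjusted p of 4.65e-05. Cxcl13 stood at 1.19, 5.85 and 25.04 CPM, against 40.5, 63.9 and 85.3 CPM in aPD1 tumors. Its groups did not overlap, and it fell by 3.15 ± 0.54 on the log2 scale (adjusted p = 1.71e-05).

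Ighm fell less, to 11.2, 13.6 and 26.1 CPM in the lowest, median and highest aPD1 + aIL2RB tumors, and only the ends of the groups overlapped. Its log2 fold change was −1.19 ± 0.16 with the smallest adjusted p of the 7 genes, 4.17e-07. Cd79b stood at 0.367, 0.853 and 1.31 CPM and had a log2 fold change of −1.47 ± 0.30 (adjusted p = 0.000242). The groups of Cd79b overlapped, since the median of these tumors was above the lowest aPD1 tumor at 0.720 CPM.

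Jchain stood at 0, 0.0911 and 0.639 CPM in the lowest, median and highest aPD1 + aIL2RB tumors, with 3 of 11 at 0, against 0.301, 1.09 and 1.96 CPM in aPD1 tumors. The groups overlapped and the log2 fold change was −2.55 ± 0.79 (adjusted p = 0.0130). Ms4a1 was at 0 in 6 of 11 aPD1 + aIL2RB tumors and reached 0.504 CPM, and its log2 fold change was −1.89 ± 0.71 with an adjusted p of 0.0435. This call of Ms4a1 was lost when any of aPD1 + aIL2RB replicates 3, 4, 5, 6, 7, 9 or 10 was left out, and DESeq2 gave −1.93 with an adjusted p of 0.0688. Ms4a1 stood at 2.11 CPM in aPD1 replicate 6 and at 0.677 CPM in the next aPD1 tumor. It has no fit without that replicate, so the call was not tried without it. Cd79a did not pass, at −0.66 ± 0.43 (adjusted p = 0.278), with means of 0.701 ± 0.532 CPM in aPD1 and 0.447 ± 0.239 CPM in aPD1 + aIL2RB tumors.

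**Figure D2:**
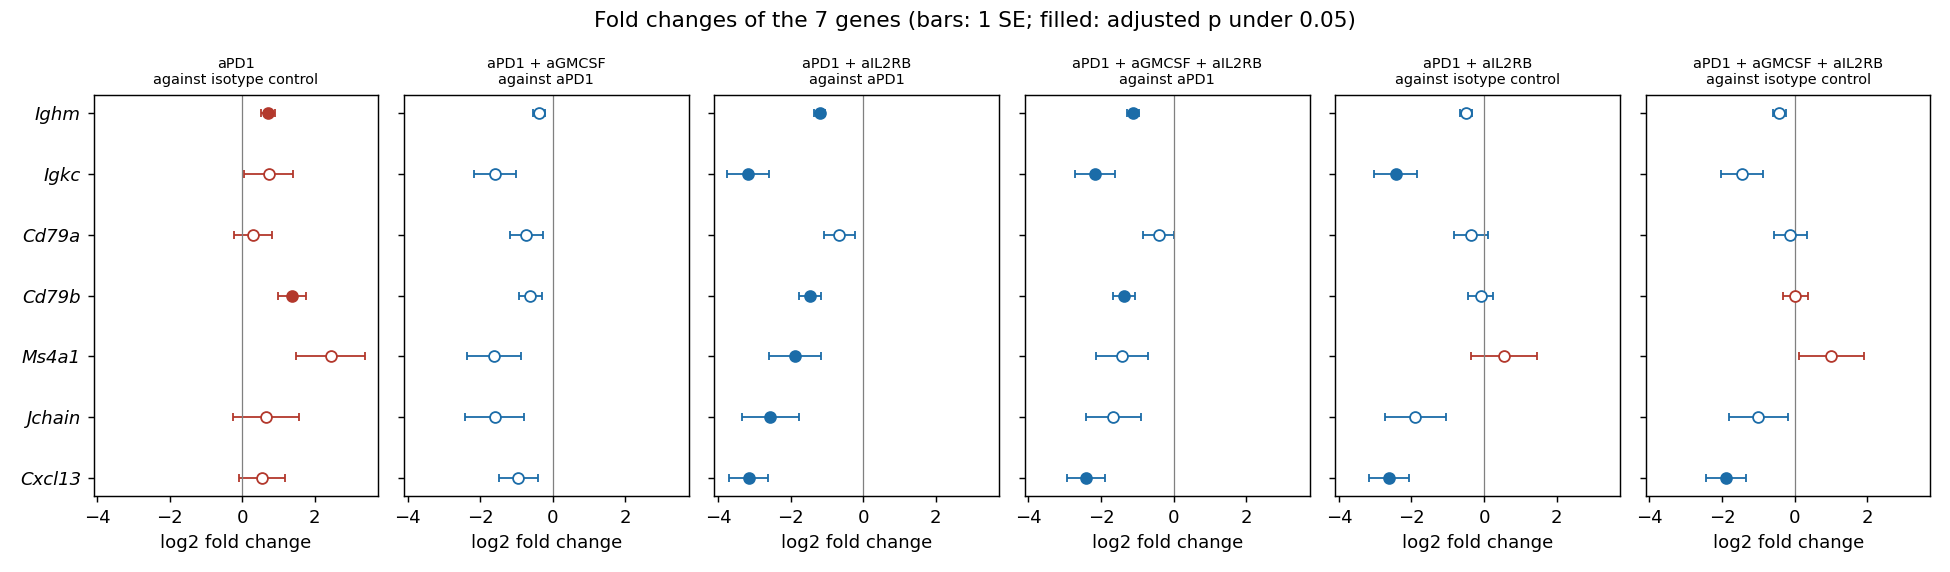
Log2 fold change of each gene ± 1 SE in 6 comparisons of treatment groups, from edgeR's quasi-likelihood fit of all 42 tumors; filled points have an adjusted p under 0.05. Ighm, Igkc, Cd79b and Cxcl13 are filled and below 0 for both aIL2RB groups against aPD1, and no gene is filled for aPD1 + aGMCSF against aPD1.

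With both blocking antibodies, 4 of the 7 genes were lower than under aPD1 alone, where 14.3% of all genes were lower. Ighm stood at 11.5, 15.4 and 23.7 CPM in the lowest, median and highest aPD1 + aGMCSF + aIL2RB tumors, all below the lowest aPD1 tumor at 25.9 CPM. The log2 fold change of Ighm was −1.12 ± 0.16 with an adjusted p of 1.45e-06. Cxcl13 stood at 0.706, 7.74 and 35.6 CPM and also did not overlap with aPD1, and it fell by 2.42 ± 0.52 on the log2 scale (adjusted p = 0.000491).

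Igkc had 0, 0.471 and 4.401 CPM in these tumors, with the highest of them above the lowest aPD1 tumor, and a log2 fold change of −2.18 ± 0.55 (adjusted p = 0.00257). Cd79b stood at 0.401, 1.08 and 1.68 CPM and fell by 1.36 ± 0.30 on the log2 scale (adjusted p = 0.000700). Jchain, with 5 of 11 tumors at 0, had a log2 fold change of −1.66 ± 0.76 (adjusted p = 0.105). Ms4a1 had −1.42 ± 0.71 (adjusted p = 0.136) and Cd79a −0.41 ± 0.43 (adjusted p = 0.526). The comparisons of the 3 combinations with aPD1 share the same 6 aPD1 tumors and are not independent of each other.

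Set against isotype control instead, 5 tumors that serve in all of these comparisons, aPD1 + aGMCSF differed in none of the 7 genes by edgeR, where 0% of all genes were called in either direction. The count was 1 at an unadjusted p under 0.05 and 0 by DESeq2, and the log2 fold changes ran from −0.93 for Jchain to 0.83 for Ms4a1. In aPD1 + aIL2RB tumors Igkc and Cxcl13 were lower than in isotype control, 2 of 7 where 1.51% of all genes were lower. Igkc fell by 2.44 ± 0.60 on the log2 scale (adjusted p = 0.0168) and Cxcl13 by 2.61 ± 0.55 (adjusted p = 0.00487). In aPD1 + aGMCSF + aIL2RB tumors only Cxcl13 of the 7 was lower, where 4.51% of all genes were lower, by 1.88 ± 0.55 on the log2 scale (adjusted p = 0.0245). Of 6 T cell genes, 4 were lower in aPD1 + aIL2RB than in isotype control, among them Cd3g (−2.58), and 3 were lower in aPD1 + aGMCSF + aIL2RB, and their part in these falls was not tested. Their summed level was 24.7 to 48.8 CPM in isotype control, 2.47 to 25.9 CPM in aPD1 + aIL2RB and 0.975 to 63.2 CPM in aPD1 + aGMCSF + aIL2RB tumors.

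All 3 of these calls were lost without isotype control replicate 2, the tumor with the highest Igkc and Cxcl13 of its group. Igkc in aPD1 + aIL2RB then had a log2 fold change of −1.83 (adjusted p = 0.137). Cxcl13 then had −1.97 (adjusted p = 0.0654) in aPD1 + aIL2RB and −1.24 (adjusted p = 0.203) in aPD1 + aGMCSF + aIL2RB tumors. Within the sets, Igkc in aPD1 + aIL2RB had −3.45 (adjusted p = 0.00951) in the first and −0.96 (adjusted p = 0.680) in the second. Cxcl13 passed in both sets, with −3.14 (adjusted p = 0.000488) and −1.96 (adjusted p = 0.0188) in aPD1 + aIL2RB and with −2.07 (adjusted p = 0.0100) and −2.88 (adjusted p = 0.000359) in aPD1 + aGMCSF + aIL2RB tumors. Ighm, not called in the full set of tumors, had −0.90 (adjusted p = 0.0135) in the first set for aPD1 + aIL2RB and −0.13 (adjusted p = 0.862) in the second. With the replicate number as a block, Igkc in aPD1 + aIL2RB had −1.69 (adjusted p = 0.0650).

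Between the combinations, the antibody against the interleukin 2 receptor chain also separated from the one against GM-CSF in Ighm and Cxcl13. In aPD1 + aIL2RB against aPD1 + aGMCSF tumors, 2 of 7 genes were lower, where 0.898% of all genes were lower. Ighm fell by 0.82 ± 0.14 on the log2 scale (adjusted p = 0.000784) and Cxcl13 by 2.20 ± 0.50 (adjusted p = 0.0117), while Ighm in the second set alone had −0.49 (adjusted p = 0.438). Of 6 T cell genes, 4 were lower in this comparison too, among them Cd3g (−2.30), with a summed level of 22.6 to 64.2 CPM in aPD1 + aGMCSF tumors, and their part was not tested. In aPD1 + aGMCSF + aIL2RB against aPD1 + aGMCSF tumors, 1 of 7 was lower, where 1.15% of all genes were lower. That gene was Ighm, which did not overlap between these groups and fell by 0.75 ± 0.14 on the log2 scale (adjusted p = 0.00359), while Cxcl13 had −1.47 ± 0.49 (adjusted p = 0.0942). Cxcl13 passed here when the model held the set (−1.67, adjusted p = 0.00332) or the replicate block (−1.58, adjusted p = 0.0135), and within the sets it had −1.22 (adjusted p = 0.137) in the first and −2.78 (adjusted p = 0.000526) in the second. Between the aIL2RB groups, aPD1 + aGMCSF + aIL2RB against aPD1 + aIL2RB, edgeR called none of the 7, none had an unadjusted p under 0.05, DESeq2 called 0, and 0.00591% of all genes were called. The log2 fold changes there ran from 0.07 for Ighm to 0.99 for Igkc.

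The interaction term asks whether the change with both antibodies differs from the sum of the changes with each. Igkc passed, 1 of 7 where 8.34% of all genes were called in either direction, with 2.58 ± 0.79 (adjusted p = 0.0341). Its log2 fold change with both antibodies, −2.18, was smaller than the sum of −1.59 for aGMCSF and −3.16 for aIL2RB. The call was lost without aPD1 replicates 3 or 4, aPD1 + aGMCSF replicate 8, or aPD1 + aGMCSF + aIL2RB replicates 1 or 2, with values of 2.20 to 2.88 and adjusted p-values of 0.0204 to 0.0766 over all tumors left out in turn. It was also lost with the replicate block (2.20, adjusted p = 0.0753), in the first set alone (3.02, adjusted p = 0.0792) and in the second (1.87, adjusted p = 0.286). When the model held the set, Igkc passed (2.54, adjusted p = 0.0196) and so did Cxcl13 (1.82, adjusted p = 0.0161). The median Igkc count was 106 in aPD1, 35 in aPD1 + aGMCSF, 13 in aPD1 + aIL2RB and 10 in aPD1 + aGMCSF + aIL2RB tumors.

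The 2 sets also differed in some of these genes. With the set as a term, 3 of 7 genes were lower in the second set, where 11.5% of all genes were lower. Cxcl13 was lower by −1.72 ± 0.25 on the log2 scale (adjusted p = 3.88e-06), Jchain by −1.78 ± 0.48 (adjusted p = 0.00505) and Igkc by −0.99 ± 0.34 (adjusted p = 0.0294). Ighm had 0.02 (adjusted p = 0.916), Cd79b −0.00 (adjusted p = 0.997), Ms4a1 −0.28 (adjusted p = 0.726) and Cd79a −0.44 (adjusted p = 0.251). Because the sets were found in these same data, these p-values from edgeR's test are not independent evidence that the sets differ. What separates the sets was not tested, and every group has tumors in both.

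**Figure D3:**
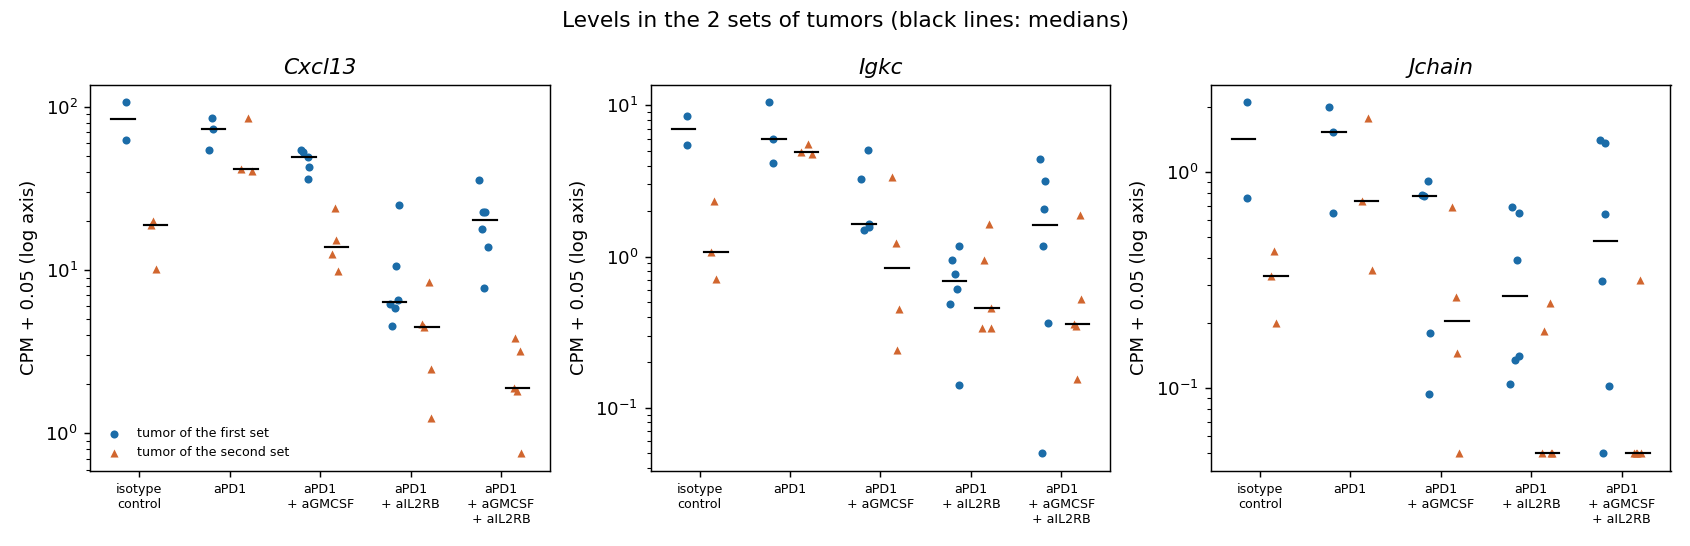
CPM of Cxcl13, Igkc and Jchain plus 0.05 on a log axis by treatment group, with the first and the second set of tumors side by side and black lines at the medians. Under aPD1 + aIL2RB and aPD1 + aGMCSF + aIL2RB, Cxcl13 lies below the aPD1 tumors of the same set in both sets.

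Within the sets, aPD1 against isotype control gave different values for the genes called. Ighm had a log2 fold change of 0.14 (adjusted p = 0.858) in the first set and 1.16 (adjusted p = 0.00112) in the second. Cd79b had 0.97 (adjusted p = 0.501) and 1.70 (adjusted p = 0.0248), and Cxcl13 −0.26 (adjusted p = 0.888) and 1.79 (adjusted p = 0.0136). The difference between the sets itself did not pass for any of these genes, at 1.01 for Ighm (adjusted p = 0.226), 0.71 for Cd79b (adjusted p = 0.791) and 2.03 for Cxcl13 (adjusted p = 0.273).

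The falls of Ighm, Igkc and Cxcl13 under aIL2RB passed in each set. In aPD1 + aIL2RB against aPD1, Ighm had −1.04 in the first set and −1.29 in the second, Igkc −3.42 and −2.88, and Cxcl13 −2.88 and −3.75. Cd79b and Jchain passed in the second set and not in the first, where Cd79b had −0.88 (adjusted p = 0.152) and Jchain −2.18 (adjusted p = 0.0979). Cd79a had 0.19 (adjusted p = 0.866) in the first set and −1.68 (adjusted p = 0.0466) in the second, and Ms4a1 passed in neither, with −0.96 (adjusted p = 0.566) and −2.49 (adjusted p = 0.0822). With both antibodies, Igkc had −1.83 (adjusted p = 0.0710) and Cd79b −0.51 (adjusted p = 0.508) in the first set, and both passed in the second. For aPD1 + aGMCSF + aIL2RB against aPD1 the falls of Ighm and Cxcl13 were larger in the second set by the test of the difference. Ighm had −0.63 (adjusted p = 0.0298) in the first set and −1.60 (adjusted p = 1.15e-06) in the second, a difference of −0.96 ± 0.27 (adjusted p = 0.0203). Cxcl13 had −1.82 (adjusted p = 0.00807) and −4.66 (adjusted p = 9.34e-08), a difference of −2.83 ± 0.66 (adjusted p = 0.00576), and 1554 genes in all differed between the sets in this way.

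The other heavy chain constant genes, which encode IgD and the classes made after switching from IgM, were lower in part in the combinations than in aPD1 tumors. Of 10 constant region genes in the list, 6 passed the filter, and Iglc1, Iglc2 and Iglc3, the lambda light chains, did not. In aPD1 + aIL2RB against aPD1, all 6 were lower, where 14.5% of all genes were, with a median log2 fold change of −3.23 against 0.00 over all genes tested. Ighg2c, an IgG chain of C57BL/6 mice, stood at 1.32, 1.82 and 6.38 CPM in the lowest, median and highest aPD1 tumors and at 0, 0.160 and 0.741 CPM in aPD1 + aIL2RB tumors, and it fell by 3.65 ± 0.71 on the log2 scale (adjusted p = 0.00012). Ighg1 had a mean of 2.07 ± 1.92 CPM in aPD1 and 0.109 ± 0.164 CPM in aPD1 + aIL2RB tumors, most of which held no count, with a log2 fold change of −4.14. Igha, the IgA chain, had a mean of 1.80 ± 1.86 CPM in aPD1 and 0.0974 ± 0.135 CPM in aPD1 + aIL2RB tumors, with −4.19. Ighd, the IgD chain of naive B cells, had −1.39 (adjusted p = 0.0436), a call that was lost in 8 of the 42 fits with a tumor left out and turned to 0.11 (adjusted p = 0.911) without aPD1 replicate 6. It was also lost with DESeq2 (−1.41, adjusted p = 0.0504) and with the replicate block (−0.71, adjusted p = 0.415). With both antibodies 4 of 6 were lower than under aPD1, where 14.3% of all genes were, among them Ighg1 at −4.12, Ighg2c at −2.31 and Ighd at −2.43, which became −0.93 (adjusted p = 0.223) without aPD1 replicate 6. With aGMCSF 3 of 6 were lower, where 8.75% of all genes were, Ighg3 at −3.25, Ighg1 at −2.64 and Ighg2c at −2.31. None of the 6 passed in aPD1 against isotype control, where their median was 1.06. Division of shared reads between copies leaves values that are not whole. Such values occurred in 1 tumor each for Ighg2b and Ighg2c and in 0 tumors for Ighg1, Ighg3 and the lambda genes. Whether whole reads were given to the right subclass was not tested. The summed level of the 10 genes ran from 4.82 to 16.3 CPM in aPD1, from 2.15 to 12.0 CPM in isotype control and from 0.693 to 2.34 CPM in aPD1 + aIL2RB tumors.

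Rearranged antibody transcripts also carry a variable segment, and the file lists 104 Ighv, 89 Igkv and 3 Iglv genes. Over all tumors there were 3.13 Ighv counts for every 100 Ighm counts, with 0 to 12.0 in single tumors and a median of 2.64. For the kappa chain there were 54.4 Igkv counts for every 100 Igkc counts, with 16.7 to 250 in the 41 tumors with any Igkc count and a median of 57.5. Counts of the kappa variable genes thus came near those of Igkc, whereas Ighm exceeded its variable segments many times over; these are counts and are not scaled by gene length. The share of Ighm among all heavy chain constant counts was 85.9% over all tumors and 61.5% to 98.1% in single tumors.

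Summed Igkv counts were 30, 53.5 and 133 in the lowest, median and highest aPD1 tumors and 2, 8 and 13 in aPD1 + aIL2RB tumors, which did not overlap. They were 3, 21 and 67 in isotype control, 3, 16 and 38 in aPD1 + aGMCSF and 0, 6 and 77 in aPD1 + aGMCSF + aIL2RB tumors. Summed Ighv counts were 13, 21.75 and 40 in aPD1 and 1, 5 and 28.5 in aPD1 + aIL2RB tumors, which overlapped. For each 100 counts of Ighm, the pooled Ighv count was 3.15 in isotype control, 3.74 in aPD1, 2.24 in aPD1 + aGMCSF, 2.51 in aPD1 + aIL2RB and 4.27 in aPD1 + aGMCSF + aIL2RB tumors. The medians over tumors were 2.80, 3.53, 2.24, 1.95 and 2.63 in the same order, so that the pooled value of the last group rests on a few of its tumors.

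**Figure D4:**
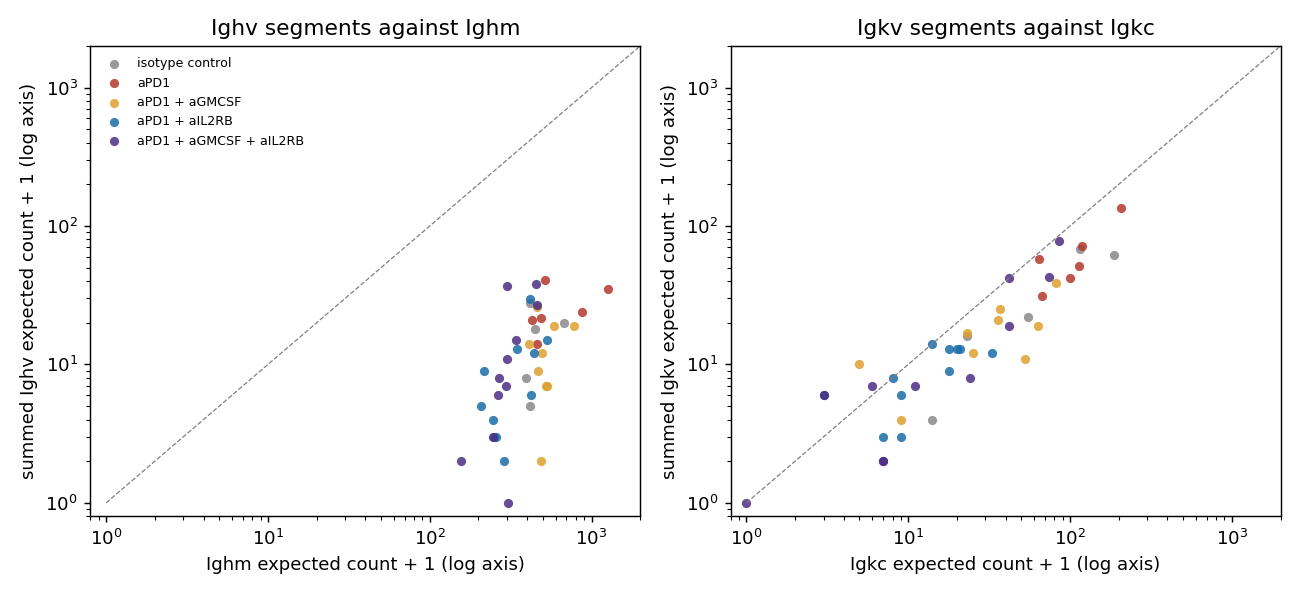
Summed counts of the heavy chain variable genes (Ighv) against Ighm and of the kappa variable genes (Igkv) against Igkc in each tumor, both as count + 1 on log axes, colored by treatment group, with a dashed line where the sums are equal. Igkv counts lie near the line for Igkc, and Ighv counts lie far below it for Ighm.

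Igkc was set against Cd79a, the receptor chain whose level did not pass in any comparison of all 42 tumors but was lower in aPD1 + aIL2RB than in aPD1 in the second set alone, as log2 of the ratio of counts with 1 added to each. The ratio was 3.20 ± 1.08 in aPD1, 2.34 ± 1.11 in isotype control, 1.81 ± 1.60 in aPD1 + aGMCSF, 0.48 ± 1.65 in aPD1 + aGMCSF + aIL2RB and 0.37 ± 1.04 in aPD1 + aIL2RB tumors (SD). It was lower by permutation test, two-sided and adjusted over 10 pairs of groups, in 3 pairs. aPD1 + aIL2RB differed from aPD1 by −2.83 (adjusted p = 0.00485) and from isotype control by −1.96 (adjusted p = 0.0214), and aPD1 + aGMCSF + aIL2RB differed from aPD1 by −2.72 (adjusted p = 0.0162). The difference from isotype control was lost without its replicates 1, 2 or 4, with values of −2.30 to −1.54 over the tumors left out in turn. The remaining 7 pairs did not pass, with adjusted p-values of 0.0671 to 0.856, although 3 of them passed in some fits with a tumor left out. The pairs that passed are those in which Igkc itself was lower, so the ratio is not a result independent of the Igkc level.

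Other genes of the B cell receptor were also higher under PD-1 blockade, several of which myeloid cells use as well. Of 25 genes of B cell identity and receptor signaling, 18 passed the filter, and 6 were higher and none lower in aPD1 than in isotype control, with a median log2 fold change of 0.55 against −0.00 over all genes. Among them were the kinases Syk (1.03), Lyn (0.62) and Btk (0.63) and the inhibitory receptor Cd22 (1.37 ± 0.37, adjusted p = 0.0164). The calls of Syk, Lyn, Btk and Cd22 in this comparison were lost in the first set alone. Cd22 was highest in aPD1 replicate 6, at 8.62 CPM against 5.72 CPM in the next aPD1 tumor, and its call is not given without that tumor. Of the same 18 genes, 9 were lower and 1 higher in aPD1 + aGMCSF than in aPD1, 10 were lower and 1 higher in aPD1 + aIL2RB, and 10 were lower and 1 higher in aPD1 + aGMCSF + aIL2RB, with medians of −0.51, −0.76 and −0.66. Over all genes, 6.17% were higher in aPD1 than in isotype control and 8.75%, 14.5% and 14.3% were lower in the combinations than in aPD1. Macrophage markers moved in the same comparisons. Of 4, 3 were higher in aPD1 than in isotype control, among them Csf1r at 0.62, and 3 were lower in each combination than in aPD1, with summed levels of 1750 to 2175 CPM in isotype control and 2036 to 3999 CPM in aPD1 tumors. The gene that was higher was Pou2af1, a B cell coactivator, in aPD1 + aGMCSF (1.15, adjusted p = 0.0261), and Ebf1, a transcription factor of B cells and stromal cells, in aPD1 + aIL2RB (0.25, adjusted p = 0.00844) and in aPD1 + aGMCSF + aIL2RB (0.27, adjusted p = 0.00628). Pax5, a transcription factor that defines B cells, did not pass in any of these 4 comparisons. Pax5 had 0.22 ± 0.42 in aPD1 against isotype control and −0.62 ± 0.35 (adjusted p = 0.203) in aPD1 + aIL2RB against aPD1. The part of macrophages in these results was not tested.

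Some plasma cell and lymphoid chemokine genes were lower in the combinations as well. Their counts stand beside 8.75%, 14.5% and 14.3% of all genes lower than in aPD1 with aGMCSF, aIL2RB and both. Of 12 plasma cell genes, 8 passed the filter, and in aPD1 + aIL2RB against aPD1 4 were lower and 1 was higher, with a median of −0.26. The lower ones were Irf4 (−2.19) and Prdm1 (−0.72), transcription factors that plasma cells and activated T cells share, and Edem1 (−0.20) and Tent5c (−0.63). The higher one was Txndc5 (0.17), which was also higher with both antibodies (0.11). The summed level of the 12 genes ran from 534 to 617 CPM in aPD1 tumors. It ran from 522 to 594 CPM in aPD1 + aIL2RB tumors, so the groups overlapped. Of 14 genes of lymphoid chemokines and the TNF family, 10 passed the filter and 3 were lower in that comparison, namely Ltb (−2.89), a lymphotoxin chain, Tnfsf13b (−1.47), which encodes the B cell survival factor BAFF, and Ccr7 (−0.92), with a median of −0.71. With both antibodies 4 were lower, Tnfsf11 (−1.82) being added, and with aGMCSF 2 were, Ccr7 (−1.39) and Cxcl12 (−1.06). Of 3 germinal center genes tested, Bcl6 was higher by 0.39 in aPD1 than in isotype control and had −0.37 in aPD1 + aGMCSF against aPD1. Cxcr5, the receptor of CXCL13, did not pass the filter, with 0 to 14 counts.

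Other cell types moved in the same comparisons, and their part in the results was not tested. Of 6 T cell genes, none passed in aPD1 against isotype control, 1 was lower in aPD1 + aGMCSF than in aPD1 (Trac, −1.25, adjusted p = 0.0484), and 5 were lower in aPD1 + aIL2RB and 6 in aPD1 + aGMCSF + aIL2RB than in aPD1. In these 4 comparisons 6.17% of all genes were higher in aPD1 than in isotype control and 8.75%, 14.5% and 14.3% were lower with aGMCSF, aIL2RB and both than in aPD1. The summed T cell level ran from 57.1 to 116 CPM in aPD1 and from 2.47 to 25.9 CPM in aPD1 + aIL2RB tumors. Ptprc (CD45), carried by all leukocytes, had 0.97 in aPD1 against isotype control, and −0.81, −1.29 and −0.98 in the combinations with aGMCSF, aIL2RB and both against aPD1, all of which passed. The call of Ptprc in aPD1 against isotype control was lost in the first set alone. Of 3 skeletal muscle genes, all were higher in aPD1 than in isotype control, with summed levels of 0.140 to 17.5 CPM in isotype control and 0.344 to 533 CPM in aPD1 tumors, and all were lower in aPD1 + aIL2RB than in aPD1. Of 3 fibroblast genes, all were higher in aPD1 than in isotype control, and 2, 3 and 1 were lower in the combinations with aGMCSF, aIL2RB and both than in aPD1. Of 3 plasmacytoid dendritic cell genes, none passed in aPD1 against isotype control, while Siglech had −1.45 (adjusted p = 0.0109) in aPD1 + aGMCSF and Ccr9 −1.03 (adjusted p = 0.0487) in aPD1 + aIL2RB against aPD1. None of 3 adipocyte genes passed in any of these 4 comparisons. The 2 keratinocyte genes were lower in aPD1 + aGMCSF + aIL2RB than in aPD1. Of 6 follicular dendritic cell and lymph node stroma genes, 2 passed the filter and neither passed a test in these 4 comparisons.

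The members varied among themselves in 2 ways within the groups. After the group means were removed from log2 CPM, the 21 pairs had Spearman correlations of 0.0549 to 0.692 over 42 tumors, as a description that shares libraries, depth and sets. Igkc and Jchain had 0.69, Jchain and Cxcl13 0.59 and Igkc and Cxcl13 0.52, and the other 18 pairs were under 0.5. Those 3 genes are also the ones that were lower in the second set.

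The genes most like each member by the same measure differed as well. For Igkc they included Ighg2c (0.80) and Ighg2b (0.67), heavy chains of IgG, and for Jchain they included Ighg2c (0.61). For Ighm they were Ppfia4 (0.71), Arhgef6 (0.65), Csf1r (0.64), Ppm1h (0.63) and Gna12 (0.62), with no immunoglobulin gene among them, and Csf1r encodes the receptor for the macrophage growth factor M-CSF. For Cxcl13 they were Glipr1 (0.83), St3gal1 (0.83), Hvcn1 (0.83), Cd83 (0.82) and Rasgrp1 (0.82). For Cd79b they included Chst15 (0.60), and for Ms4a1 the highest was Nap1l2 (0.60).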

How the data were processed

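Poly(A) RNA of 42 tumors was sequenced with 100 base paired-end reads. The deposited values are expected counts per gene, which the authors made with bowtie 1.2.3 (version from the submitters' processing notes) on the transcriptomes of the Collaborative Cross founder strains (GRCm38) and with gbrs, summed over haplotypes and not normalized, so that reads shared between copies were divided and 15.2% of the values are not whole. They were rounded. Symbols (26629 of 26811 genes) and positions came from GENCODE on GRCm38, and promoters from RefSeq. Genes were kept by filterByExpr (minimum count 10, minimum total 15), and all 42 tumors were fitted in edgeR 4.0.16 (R 4.3.3) with TMM and quasi-likelihood tests, adjusted by the Benjamini-Hochberg method over 16932 genes in each of 10 pairs of groups, with a threshold of 0.05. CPM are the counts scaled to a common total after TMM. The procedure was tried on simulated data with known changes in the aPD1 group only, and its outcome is not given here. The simulated data held no sets and no outlying tumors, so they do not bear on results that depend on these. Ratios were tested with permutations (exact, or 100000 draws where both groups held 10 or more tumors) in scipy 1.17.1. The genes and the gene lists were chosen with earlier results of these data known. Of the lists, up to 4 genes past the threshold per list and comparison and all constant region genes were named, and the 5 genes most like each member by Spearman correlation. The alternatives were DESeq2 size factors, library size only, a total of at least 5 counts as filter, DESeq2 1.42.0, robust fitting, only the groups compared, the replicate number as a block, a ratio pseudocount of 0.5, the set as a term, each set alone, and each tumor left out in turn. Some genes that the rule names are not reported here. p-values measure the spread between these tumors.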

Additional observations from a re-analysis of the deposited data

Results flagged for a closer look

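Single tumors lay far from their group by Dixon's test in 6 of 21 groups of values tested. A rate of about 1 in 20 by chance holds only for independent, normally distributed values. Here the genes share tumors and several have low counts, so the 6 cannot be set against that rate. Isotype control replicate 2 had 30.99 CPM of Ighm, with the nearest tumor at 20.97, and 1.60 CPM of Cd79a, with the nearest at 0.422. aPD1 replicate 6 had 59.3 CPM of Ighm, with the nearest at 37.5, and 2.11 CPM of Ms4a1, with the nearest at 0.677. aPD1 replicate 3 had 10.4 CPM of Igkc, with the nearest at 5.94, and aPD1 + aGMCSF replicate 3 had 1.04 CPM of Cd79a, with the nearest at 0.546.

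The effect of adding both antibodies to aPD1 differed from the sum of the effects of each for Igkc, by 2.58 on the log2 scale (adjusted p = 0.0341 in edgeR), a call that was lost with the replicate block, within each set and without any of 5 single tumors. The fall with both antibodies differed between the 2 sets of tumors for Ighm, by −0.96 (adjusted p = 0.0203), and for Cxcl13, by −2.83 (adjusted p = 0.00576).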

How the results depend on the processing

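Low counts limit these results, since Cd79a and Jchain had under 10 counts in 26 tumors each and Ms4a1 in 36, and Ms4a1 was not kept by the filter in 5 of 42 fits with a tumor left out. Ighm and Cxcl13 kept their fall against aPD1 in both aIL2RB groups, past the threshold, in all 10 settings other than leaving out tumors, and Igkc did in aPD1 + aIL2RB. Same-numbered tumors of different groups had a median correlation of 0.0349 over 67 pairs, 16 of them over 0.1 and none over 0.193. Tumors of different numbers had a median of −0.00394. In 22 of 134 searches for the best match of a tumor in another group the tumor of its own number was found. No rate without pairing was worked out, so these values show no close pairing by number but cannot exclude a weak one. Of the calls of named list genes, recomputed under the settings other than leaving out tumors, 999 kept their side of the threshold and direction and 166 were lost, among them those of Syk, Lyn, Btk, Cd22 and Ptprc in aPD1 against isotype control in the first set alone. The cause of the changes was not tested.

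The number of the 7 genes called moved by over 1.5 times in these settings. With only the groups compared, it became 0 for aPD1 against isotype control, 1 for aPD1 + aGMCSF against aPD1 and 0 for aPD1 + aGMCSF + aIL2RB against isotype control. With the replicate block, it became 1 for aPD1 + aGMCSF against aPD1, 1 for aPD1 + aIL2RB against isotype control, 2 for aPD1 + aGMCSF + aIL2RB against aPD1 + aGMCSF and 0 for the interaction. With the set as a term, it became 2 for aPD1 + aGMCSF against aPD1, 2 for aPD1 + aGMCSF + aIL2RB against aPD1 + aGMCSF and 2 for the interaction. In the first set alone, it became 0 for aPD1 against isotype control, 3 for aPD1 + aIL2RB and 2 for aPD1 + aGMCSF + aIL2RB against aPD1, and 0 for the interaction. In the second set alone, it became 2 for aPD1 + aGMCSF against aPD1, 1 for aPD1 + aIL2RB against isotype control, 1 for aPD1 + aIL2RB and 2 for aPD1 + aGMCSF + aIL2RB against aPD1 + aGMCSF, and 0 for the interaction. Smaller moves in the second set alone were to 3 for aPD1 against isotype control and 6 for aPD1 + aGMCSF + aIL2RB against aPD1, and in the first set alone to 3 for aPD1 + aIL2RB against isotype control. With a tumor left out in turn, the count was 0 to 2 for aPD1, 0 to 3 for aPD1 + aIL2RB and 0 to 2 for aPD1 + aGMCSF + aIL2RB against isotype control, 0 to 1 for aPD1 + aGMCSF against aPD1, 1 to 2 for aPD1 + aGMCSF + aIL2RB against aPD1 + aGMCSF and 0 to 1 for the interaction.

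Log2 fold changes that turned sign were mostly not past the threshold in the full set of tumors. In the first set alone they were 0.072 for Ighm and 0.0556 for Cd79b in aPD1 + aGMCSF against aPD1, and −0.0283 for Igkc, −0.88 for Cd79a, −0.0307 for Jchain and −0.26 for Cxcl13 in aPD1 against isotype control. Cd79a had 0.19 and 0.0295 in aPD1 + aIL2RB and aPD1 + aGMCSF + aIL2RB against aPD1, −0.17 between these groups and −0.12 for the interaction. Cd79b had 0.0903 and Ms4a1 −0.19 in aPD1 + aIL2RB against isotype control, and Jchain 0.34 in aPD1 + aGMCSF + aIL2RB against aPD1 + aGMCSF. In the second set alone, aPD1 + aGMCSF + aIL2RB against aPD1 + aIL2RB gave −0.31 for Ighm, −0.15 for Igkc, −0.26 for Cd79b, −0.39 for Ms4a1, −0.14 for Jchain and −0.91 for Cxcl13. Cd79a then had 0.0514 and 0.73 in aPD1 + aGMCSF and aPD1 + aGMCSF + aIL2RB against isotype control and −0.26 in aPD1 + aIL2RB against aPD1 + aGMCSF, Cd79b −0.47 in aPD1 + aGMCSF + aIL2RB against isotype control, and Ms4a1 −0.64 in aPD1 + aGMCSF + aIL2RB against aPD1 + aGMCSF. With the replicate block, Cd79a had 0.14 in aPD1 + aGMCSF + aIL2RB and Cxcl13 0.37 in aPD1 + aGMCSF against isotype control, and with library size only Cd79b had −0.0057 in aPD1 + aGMCSF + aIL2RB against isotype control.

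With a tumor left out in turn, Cd79a ranged from −0.20 to 1.15 in aPD1, −0.73 to 0.43 in aPD1 + aGMCSF, −0.55 to 0.50 in aPD1 + aIL2RB and −0.31 to 0.74 in aPD1 + aGMCSF + aIL2RB against isotype control, from −0.62 to 0.0877 in aPD1 + aGMCSF + aIL2RB against aPD1 and from −0.10 to 0.38 in aPD1 + aIL2RB against aPD1 + aGMCSF. Cd79b ranged from −0.23 to 0.0899 and from −0.12 to 0.20 in aPD1 + aIL2RB and aPD1 + aGMCSF + aIL2RB against isotype control, and from −0.00162 to 0.19 between these groups. Jchain ranged from −0.53 to 0.18 in aPD1 + aGMCSF + aIL2RB against aPD1 + aGMCSF, Cxcl13 from −0.66 to 0.23 in aPD1 + aGMCSF against isotype control, and Ighd from −1.62 to 0.11 in aPD1 + aIL2RB against aPD1.

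For pairs with aPD1 or isotype control, the ratio of Igkc to Cd79a could hardly pass within a set, since the smallest two-sided p of the exact permutation test before adjustment over 10 pairs is 0.0238 for 3 against 6, 0.0357 for 3 against 5 and 0.0714 for 2 against 6 tumors, so these tests say nothing about the sets. aPD1 + aIL2RB against aPD1 had −3.59 (adjusted p = 0.119) in the first set and −1.98 (adjusted p = 0.317) in the second, aPD1 + aGMCSF + aIL2RB against aPD1 had −2.53 (adjusted p = 0.159) and −3.01 (adjusted p = 0.179), and aPD1 + aIL2RB against isotype control had −3.27 (adjusted p = 0.179) and −0.86 (adjusted p = 0.408). Between the aIL2RB groups it turned to −1.03 in the second set. With a tumor left out in turn it ranged from −2.30 to −1.54 in aPD1 + aIL2RB and −2.19 to −1.43 in aPD1 + aGMCSF + aIL2RB against isotype control, from −1.76 to −1.11 in aPD1 + aGMCSF against aPD1, from −1.72 to −1.06 in aPD1 + aIL2RB against aPD1 + aGMCSF, and from −0.14 to 0.39 between the aIL2RB groups.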

Other observations

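The lambda light chain genes had lower median counts than kappa. Iglc1, Iglc2 and Iglc3 had medians of 0, 0 and 1 counts and 0 to 12 in any tumor, whereas Igkc had a median of 22.5 and reached 207. Igkc was itself under 10 counts in 12 tumors, where the ranges overlap.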
